A study of Mus musculus with 2 samples.

Results

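Heme synthesis and iron handling were examined through 9 genes of a table of 23235 genes measured by RNA sequencing in 2 mouse leukaemias. The genes were taken by symbol, with earlier results of these data known: 7 enzymes of heme synthesis (Alas1, Alad, Uros, Urod, Cpox, Ppox and Fech), the transferrin receptor gene Tfrc and the ferritin heavy chain gene Fth1. Each of the 9 symbols matched 1 row of the table. The samples were cells of acute promyelocytic leukaemia (APL), in which the PML-RAR fusion protein holds myeloid cells at the promyelocyte, a granule-making precursor of neutrophils. They came from APL#1 and APL#2, described by the series as clones with different frequencies of leukaemia-initiating cells, and there was 1 library from each. Both leukaemias carried the CD45.2 allele, were labelled C57BL/6-Ly5.2, untreated and 10 weeks of age, and grew in CD45.1+ C57BL/6-Ly5.1 recipients that had not been irradiated. The injected dose was 2000000 cells for APL#1 and 200000 for APL#2. The labels name the source mice as mCG-PML-RAR transgenic and the genotype as PML-RAR KI, and both sample titles carry the letters VEH. CD45.2+ cells were purified from spleen on immunomagnetic columns. With 1 library per leukaemia no test was possible, and the leukaemia, the recipient, the cell dose and the library cannot be told apart as sources of a difference.

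Heme is an iron-containing ring that serves as the cofactor of many proteins, among them myeloperoxidase, the main enzyme of promyelocyte granules. Its synthesis starts in mitochondria with ALAS, continues in the cytosol and ends in mitochondria, where ferrochelatase inserts iron. ALAS1 is the form found in most cells and ALAS2 the form of red cell precursors. Iron enters cells on transferrin through the transferrin receptor and is stored in ferritin, a shell of heavy and light chains. Iron regulatory proteins bind short hairpins called iron-responsive elements when iron is low: bound in the 5′ untranslated region of ferritin RNA they block translation, and bound in the 3′ untranslated region of Tfrc RNA they protect it from decay. The RNA level of Fth1 therefore need not follow its protein, and the RNA level of Tfrc is itself a target of this control.

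The elements are shown because they set what an RNA level of Fth1 and of Tfrc can report. They were found in GENCODE vM21 transcripts (GRCm38, sense strand) as CNNNNNCAGTGN followed by 5 bases that pair with the 5 before the loop, G-T pairs allowed. Capitals mark the loop of 6 bases, and each sequence of 27 bases is written 5′ to 3′ as DNA.
Fth1 5′ element, chr19:9982733-9982759, plus strand: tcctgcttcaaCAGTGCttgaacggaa
Ftl1 5′ element, chr7:45459780-45459806, minus strand: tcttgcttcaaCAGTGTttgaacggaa
Tfrc 3′ element 1, chr16:32631220-32631246, plus strand: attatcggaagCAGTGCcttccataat
Tfrc 3′ element 2, chr16:32631599-32631625, plus strand: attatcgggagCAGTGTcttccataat
Tfrc 3′ element 3, chr16:32631664-32631690, plus strand: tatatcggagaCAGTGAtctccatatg
Tfrc 3′ element 4, chr16:32631711-32631737, plus strand: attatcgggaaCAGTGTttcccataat
The pattern occurred in the 5′ untranslated region of 21 of 19813 genes (0.106%) and in the 3′ untranslated region of 98 of 19927 (0.492%). Tfrc held 4 matches and Fth1 held 1. A match describes the sequence and measures no binding.

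Among the members, Fth1 and Alas1 stood far above the other 7 in both libraries. Levels are given as FPKM, fragments per length of transcript and per total of fragments, a unit in which genes can be compared. Fth1 measured 15.1 FPKM in APL#1 against 25.5 in APL#2. Alas1, the enzyme of the first and rate-limiting step, stood at 8.48 and 7.50 FPKM. The others lay between 0.239 (Uros) and 2.14 FPKM (Fech) in APL#1 and between 0.241 (Uros) and 2.12 (Ppox) in APL#2. A gene is called measured here when its mean FPKM over both libraries was at least 1, as it was for 4100 genes. Alas1, Urod, Ppox, Fech and Fth1 passed, and Alad, Uros, Cpox and Tfrc did not. All values sum to only 34894 FPKM in APL#1 and 35240 in APL#2, so a gene under this cut is not thereby absent. By estimated fragments these genes ran from 22 and 23 for Uros to 173 and 135 for Tfrc. Of all measured genes, 5.20% had a higher mean level than Fth1 and 11.7% a higher one than Alas1, whereas 88.6% exceeded Urod.

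**Figure D1:**
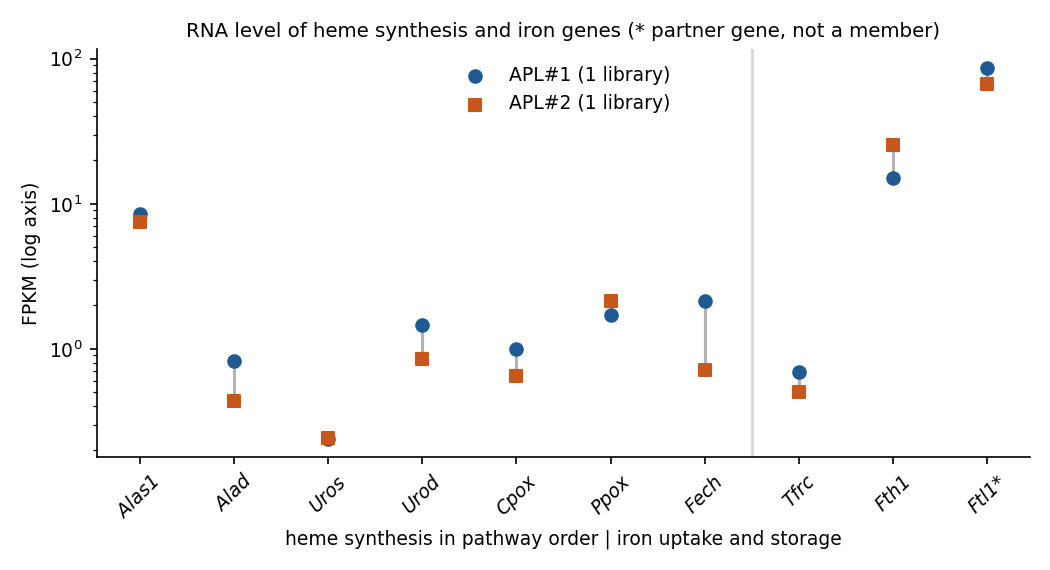
FPKM (log axis) of the 9 members and of the ferritin light chain gene Ftl1 (marked with an asterisk) in APL#1 (circles) and APL#2 (squares), with 1 library each and so no error bars. Alas1 stands above the other enzymes in both libraries, Fech shows the widest gap among the enzymes (2.14 and 0.713 FPKM), and Fth1 is higher in APL#2 while Ftl1 is lower.

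The order of the remaining genes was not fully the same in the libraries. In APL#1 it ran Fech, Ppox, Urod, Cpox, Alad, Tfrc, Uros, and in APL#2 Ppox, Urod, Fech, Cpox, Tfrc, Alad, Uros. Fragments per gene were estimated from the steps between low values, and intervals from them cover counting error only. By these 95% intervals, Fech, Ppox and Urod overlapped from neighbour to neighbour in APL#1, as did Cpox, Alad and Tfrc. In APL#2 every neighbouring pair from Urod down overlapped, whereas Ppox stood apart at 1.84 to 2.42 FPKM. Fech was thus the third highest member in APL#1 and the fifth in APL#2, where it stood below Ppox.

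Of the 7 enzymes 5 had lower values in APL#2. Among measured genes 71.6% did, a set that leaves out Alad, Uros and Cpox. Alas1 was nearly level between the leukaemias, and Alad, Urod, Cpox and Fech differed more. Alas1 (mm9 chromosome 9, 106135785 to 106150285) had a ratio of APL#2 to APL#1 of 0.885, with a counting interval of 0.820 to 0.955 from about 1337 and 1279 fragments. The median ratio of measured genes with signal in both libraries was 0.835, inside that interval. By counting error Alas1 could not be told from the typical gene, and its sign depended on the scaling: the log2 difference of -0.16 became 0.04 when the libraries were scaled to their upper quartiles. The exons of Alas1 share 11.1% of their bases with an antisense gene, 4930500F10Rik, and without stranded counting their reads cannot be told apart.

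Alad, which joins 2 molecules of aminolevulinic acid, measured 0.824 FPKM in APL#1 against 0.437 in APL#2 (mm9 chromosome 4, 62170203 to 62181097). Its ratio was 0.531 with a counting interval of 0.337 to 0.837, from about 51 and 29 fragments. Urod, which removes carboxyl groups from uroporphyrinogen, stood at 1.46 and 0.845 FPKM (chromosome 4, 116662821 to 116666980), a ratio of 0.579 (0.429 to 0.782). Cpox, the next enzyme, stood at 1.00 and 0.646 FPKM (chromosome 16, 58670320 to 58680502), a ratio of 0.643 (0.505 to 0.820). For Urod and Cpox the interval lay below the typical ratio of 0.835, and that of Alad just reached it.

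Fech, ferrochelatase, had the plain ratio farthest from level among the 9 genes. It measured 2.14 FPKM in APL#1 against 0.713 in APL#2 (mm9 chromosome 18, 64616203 to 64648720), about 191 and 69 fragments. The plain ratio was 0.333 (counting interval 0.253 to 0.439), the lowest of the 9. On the log2(FPKM + 1) scale, which shrinks differences of low genes, the difference was -0.87, and 3.61% of measured genes had one as low or lower. Among 82 other measured genes of chromosome 18, whose median was -0.19, 2 had a difference as low or lower. Relative to the all-gene median the difference of Fech was -0.70, smaller in size than that of Fth1 (0.90). In the authors' deposited table Fech had p = 0.0989, the lowest of the 9 members, and q = 1.00.

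Ppox and Uros did not share the lower values. Ppox, which oxidises protoporphyrinogen just before the ferrochelatase step, measured 1.72 FPKM in APL#1 against 2.12 in APL#2 (mm9 chromosome 1, 173207122 to 173211317), a ratio of 1.23 (1.00 to 1.51). Uros, which closes the ring, stood at 0.239 and 0.241 FPKM (chromosome 7, 140878012 to 140900978), a ratio of 1.01 with the wide interval of 0.562 to 1.81, from about 22 and 23 fragments. The ratio of Fech to Ppox RNA, the last 2 enzymes of the pathway, was 1.24 in APL#1 and 0.337 in APL#2. Alas1 exceeded Fech 3.96-fold in APL#1 and 10.5-fold in APL#2. Summed over the 7 enzymes among the members, FPKM came to 15.9 and 12.5, and Alas1 made up 53.4% and 60.0% of these sums.

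**Figure D2:**
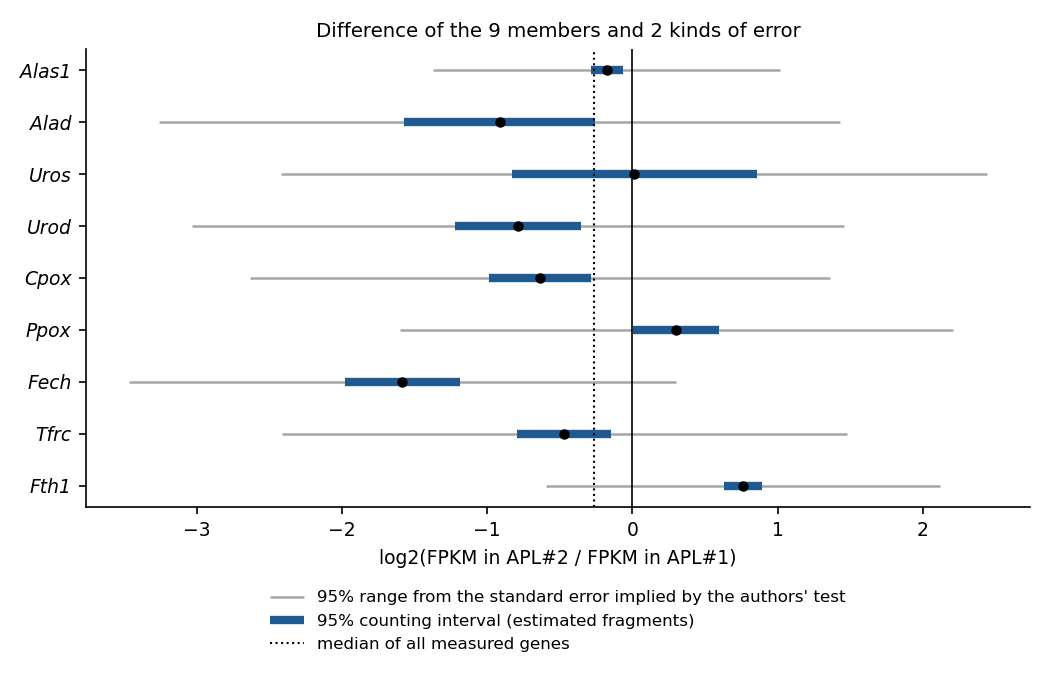
Log2 ratio of FPKM in APL#2 to APL#1 for the 9 members (points), with the 95% counting interval (thick lines), the 95% range from the standard error that the authors' test statistic implies (thin lines) and the median of all measured genes (dotted). Fech lies farthest to the left and Fth1 farthest to the right. Every thin line crosses 0.

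Read against all measured genes, the 5 measured members did not stand apart as a group. At least 2-fold differences on the log2(FPKM + 1) scale were seen in 2.1% of measured genes toward APL#2 and 2.44% toward APL#1, and in none of the 5 measured members in either direction. By plain ratio, Fech alone was at least 2-fold lower in APL#2, as were 6.83% of measured genes, and no member reached that size toward APL#2, as 3.39% of them did. Of the 9 members 6 were lower in APL#2, and 5 of the 9 lay below the median of measured genes. Among measured genes these shares were 71.6% and, by definition, 50%, but that set leaves out Alad, Uros, Cpox and Tfrc. Of the 5 measured members 2 lay below that median. The median log2 difference was -0.16 over the 5 measured members and -0.17 over all measured genes. With no filter on low values it was -0.17 over the 9 members and -0.03 over 14062 genes with signal. For 8 heme synthesis enzymes (the 7 members and Alas2), 2 of the 4 measured were under the median of all genes, and their own median was -0.29 over those 4 and -0.22 over all 8. The standard errors implied by the authors' test, log2 ratio divided by test statistic, ran from 0.61 (Alas1) to 1.24 (Uros) on the log2 scale. The q-value in the authors' deposited table was at most 0.05 for 0.0473% of all genes and for none of the 9. Counting intervals are narrower and hold no variation between animals or libraries. What the authors' standard errors include is not known, and 1 library per leukaemia gives no measure of variation between animals.

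**Figure D3:**
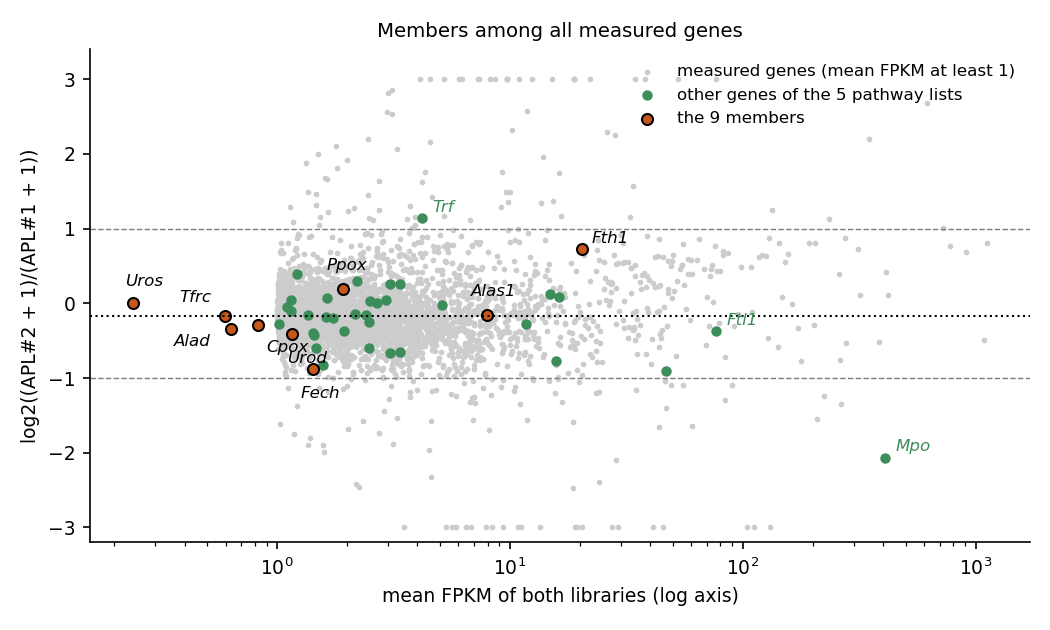
Log2 difference on the FPKM + 1 scale against mean FPKM (log axis) for 4100 measured genes (grey), the 9 members (orange) and the other measured genes of 5 pathway lists (green), with the all-gene median (dotted) and 2-fold lines (dashed). Differences beyond 3 are drawn at that value. All 9 members lie between the 2-fold lines, with Fth1 at 0.72 and Fech at -0.87, while Trf lies above and Mpo below them.

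Genes of red cell precursors were at or near 0. Alas2 was at 0.0101 FPKM in APL#1, about 1 fragment, and listed at 0 in APL#2, where a count of 0 allows up to 0.0287 FPKM (3 fragments). Of 19 rows matched to erythroid markers, 12 were at 0 in each library, the globin row Hbb-b1,Hbb-b2 and the band 3 gene Slc4a1 among them. At 0 in both libraries were 8 of the 19, a share similar to the 9173 of all 23235 rows. The zeros alone therefore do not set this list apart. The row Hba-a1,Hba-a2 measured 0.0242 FPKM in APL#1 against 0 in APL#2. The summed level of the list was 0.117 and 0.113 FPKM, below that of Uros alone, and the highest row, Gata1, stood at 0.0327 and 0.0504. All 10 genes of a list made to check the promyelocyte label were measured, among them Elane (32.4 and 5.01 FPKM), Cebpe (8.20 and 7.40) and Ctsg (7.89 and 8.99). Ptprc, Cd34 and Kit are on that list too and are not particular to promyelocytes.

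Mpo, whose protein takes up heme, was lower in APL#2 by a plain ratio of 0.238, beside 0.333 for Fech and 0.885 for Alas1. It measured 661.8 FPKM in APL#1 against 157.3 in APL#2, so that Mpo RNA exceeded Alas1 RNA 78.1-fold in APL#1 and 21.0-fold in APL#2. Relative to Fech the gap was 309.2-fold and 220.4-fold, a smaller shift, since Fech was lower in APL#2 as well. Of 21 genes for heme proteins or their assembly 8 were measured, of which 5 were under the median of all genes, and their median was -0.50. Mitochondrial cytochrome genes were among them: Cycs, cytochrome c, stood at 1.96 and 0.963 FPKM, Cyc1, cytochrome c1 of complex III, at 3.97 and 2.12, and Sdhd, an anchor subunit of complex II, at 4.35 and 2.39. Sdhc, the other anchor subunit, was near the typical gene, at 2.60 and 2.22 FPKM with a ratio of 0.854. Cyb5, cytochrome b5, stood at 1.76 and 1.10 FPKM. Cyba, the small chain of the phagocyte oxidase, did not share this, at 14.2 and 15.5 FPKM, nor did Cox10, which modifies heme for cytochrome oxidase, at 1.15 and 1.07. On the log2(FPKM + 1) scale Mpo was the 1 measured gene of this list past 2-fold, and by plain ratio Cycs, at 0.491, was past it as well.

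Ferritin chains differed in opposite directions. Fth1, the heavy chain that oxidises iron (mm9 chromosome 19, 10057192 to 10059582), was 1.70-fold higher in APL#2 (counting interval 1.55 to 1.86), from about 714 and 1308 fragments. Its log2 difference of 0.72 was reached or exceeded by 3.88% of measured genes. Ftl1, the light chain, measured 86.6 FPKM in APL#1 against 66.5 in APL#2, a ratio of 0.768 (0.734 to 0.803). Its log2 difference of -0.38 was not unusual, as 23.7% of measured genes had one as low or lower. Heavy to light chain RNA was thus 0.174 in APL#1 and 0.384 in APL#2, a 2.21-fold shift, while their sum was 101.7 and 92.0 FPKM. Sequences of 7 other GENCODE genes matched the Ftl1 coding sequence, and 1 matched that of Fth1, at an identity of at least 90% over 200 bases, so the level of Ftl1 is uncertain where reads were split. In the authors' deposited table p was 0.271 for Fth1 and 0.424 for Ftl1.

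The higher value of Fth1 was shared by most of its chromosome. The 133 other measured genes of chromosome 19 had a median log2 difference of 0.43 (interquartile range 0.26 to 0.67) and a median ratio of 1.62, next to 1.70 for Fth1. Of these, 27 had a difference at least as high as Fth1, which lay 0.30 above the chromosome's median. Against the all-gene median of -0.17 Fth1 stood 0.90 higher. Slc25a28, a mitochondrial iron importer on the same chromosome, measured 0.920 FPKM in APL#1 against 1.52 in APL#2, a ratio of 1.65. Medians of the chromosomes that carry the other members lay between -0.22 and -0.12.

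**Figure D4:**
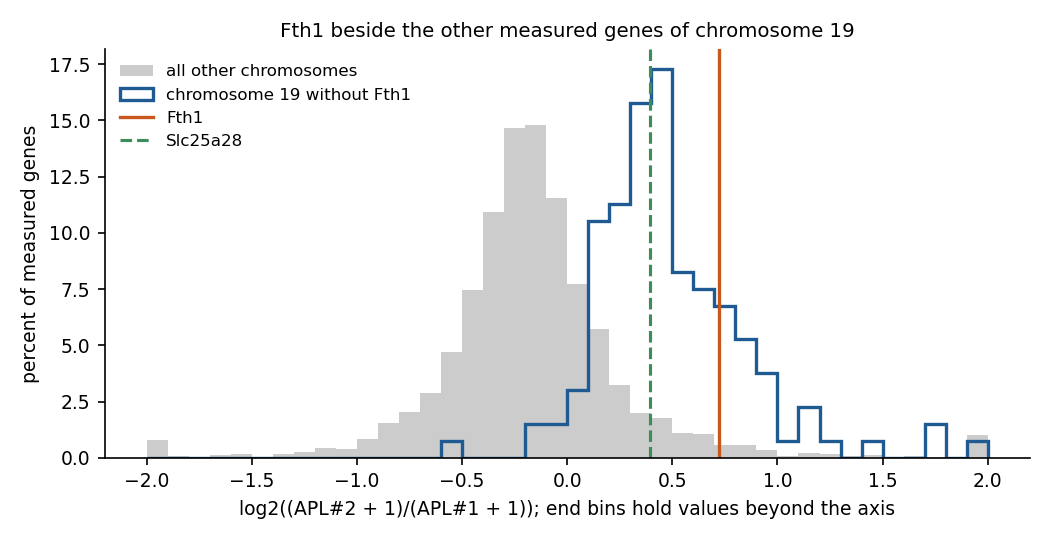
Share of measured genes (percent) by log2 difference on the FPKM + 1 scale for chromosome 19 without Fth1 (blue outline, 133 genes) and for all other chromosomes (grey), with Fth1 (orange line) and Slc25a28 (green dashed line). Values beyond the axis are in the end bins. Chromosome 19 is shifted toward APL#2 with a median of 0.43, and both genes lie within its distribution.

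In APL#2 the transferrin receptor gene was lower and the gene of its ligand higher. Tfrc measured 0.694 FPKM in APL#1 against 0.501 in APL#2 (mm9 chromosome 16, 32608981 to 32632880), a ratio of 0.722 with a counting interval of 0.577 to 0.904 that holds the typical 0.835. Trf, transferrin itself, stood at 2.24 and 6.14 FPKM, 2.75-fold higher in APL#2 (2.41 to 3.14). It was the 1 measured gene of 10 in the iron handling list past 2-fold on the log2(FPKM + 1) scale. By plain ratio the lactoferrin gene Ltf was past it as well, lower in APL#2 at 0.376 (0.307 to 0.461). In the authors' deposited table Trf had p = 0.0662 and q = 1.00. Fewer cells of a type and less RNA per cell cannot be told apart in such bulk samples.

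The other iron genes differed in both directions. The iron regulatory protein genes Aco1 (0.417 and 0.259 FPKM) and Ireb2 (0.415 and 0.335) and the endosomal iron transporter gene Slc11a2 (0.249 and 0.193) were under FPKM 1 in both libraries. The ratio of Aco1 was 0.623 (0.442 to 0.877). Pcbp1 and Pcbp2, iron chaperones, stood at 15.7 and 16.7 and at 5.16 and 5.04 FPKM. Ncoa4, which carries ferritin to lysosomes, stood at 2.88 and 2.99 FPKM, and the mitochondrial iron importer gene Slc25a37 at 2.97 and 3.76. In contrast, 2 secreted iron binders of later granules were lower in APL#2: Lcn2, which captures bacterial iron carriers, stood at 20.1 and 11.4 FPKM, and Ltf, lactoferrin, at 2.29 and 0.860. Of the 10 measured iron handling genes 7 were above the median of all genes, and the median of the 10 was 0.06. It was -0.03 over 7 genes without chromosome 19 and stretches of chromosomes 2 (Psmd14 to 1110034G24Rik) and 6 (Capg to Far2). Differences over the stretches of chromosomes 2 and 6 are not summarised here.

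Slc40a1, the iron exporter ferroportin, measured 0.0330 FPKM in APL#1 against 0.224 in APL#2, about 6 and 42 fragments, a ratio of 6.78 (2.82 to 16.3). In the authors' deposited table Slc40a1 had p = 0.0386 and q = 1.00. Ferroportin is abundant in the red pulp macrophages of spleen, which recycle iron. Recipients were CD45.1+ and CD45.2+ cells were selected, and how many recipient cells were left was not measured here. Matched B cell markers summed to 0.196 FPKM in APL#1 and 0.404 in APL#2, and T cell markers to 0.0526 and 0.261. All 5 B cell and all 6 T cell rows were higher in APL#2, with none above 0.158 FPKM. How many of all such low genes were higher was not counted. Of 13 rows matched to markers of red pulp macrophages none was measured. Their summed level was 0.859 FPKM in APL#1 and 1.35 in APL#2, and 4 and 5 rows were at 0. These rows include Slc40a1 itself and Hmox1, and over the 10 rows without these and Emr1 the sums were 0.166 and 0.187 FPKM. By direction, 6 of the 13 rows were lower and 4 higher in APL#2, Slc40a1 and Emr1 among the 4. The other 3 were at 0 in both, as were 9173 of all 23235 rows. The defining factor gene Spic was among those at 0 in both, and Cd163 stood at 0.0416 and 0.0231 FPKM. Emr1, which encodes the macrophage antigen F4/80 and was picked after its values were seen, stood at 0.0230 and 0.537 FPKM. The part of such cells in the value of Slc40a1 was not tested.

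The median of heme breakdown and transport genes was close to that of all genes, with Hp and Tmem14c lower in APL#2. Of 24 genes 8 were measured, 5 of them under the median of all genes, and their median was -0.22 and none past 2-fold. Abcg2 of this list was under the mean FPKM of 1 and is given under other observations. Hmox1, the inducible heme oxygenase, measured 0.637 FPKM in APL#1 against 0.401 in APL#2, and Hmox2, the constitutive form, stood at 1.91 and 1.55. Blvrb, which reduces biliverdin, stood at 1.48 and 1.22 FPKM. Tmem14c, which moves protoporphyrinogen into mitochondria, stood at 3.18 and 1.77 FPKM, a ratio of 0.557 (0.429 to 0.725). Slc25a39, a mitochondrial carrier, stood at 2.77 and 2.17 FPKM, Slc48a1, a heme transporter, at 2.67 in both, and Eif2ak1, the heme-sensing kinase, at 2.46 and 2.54. Tspo, an outer mitochondrial membrane protein, stood at 12.9 and 10.5 FPKM. Hp, haptoglobin, which binds free haemoglobin and is also a neutrophil granule protein, stood at 61.2 and 32.3. Its log2 difference was -0.90, and 3.27% of measured genes had one as low or lower, beside 9.76% for Tmem14c.

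The median of genes that build iron-sulfur clusters, the other main use of mitochondrial iron, was likewise near that of all genes. Of 17 genes 10 were measured, 4 under and 6 above the median of all genes, and their median was -0.12 and none past 2-fold. Ferrochelatase of mammals itself holds such a cluster. Iscu, the scaffold protein, measured 2.30 FPKM in APL#1 against 1.56 in APL#2, Isca1 stood at 1.80 and 1.08, and Glrx5, which hands clusters on, at 2.31 and 2.00. Nfu1 (1.87 and 2.54 FPKM) and Bola3 (2.68 and 3.42) were higher in APL#2. Both lie in the stretch of chromosome 6 from Capg to Far2, whose genes as a set are not summarised here.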

How the data were processed

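The authors deposited 1 gene table for both libraries. TopHat2 2.0.10, Cufflinks, Cuffdiff and mm9 are named in the submitters' processing notes, with no role or order. Not given in the sources used here are the strand, the annotation, the filters and the way of normalizing. The value columns deposited by the authors were read as FPKM from the table's layout, since its header names no unit. They sum to 34894 and 35240. The deposited test statistic is a score per gene, beside a p-value and a q-value that the authors deposited, per the file headers.

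Differences are log2((APL#2 + 1)/(APL#1 + 1)), with a pseudocount of 1. Depth was estimated from low values, whose commonest ratio of APL#1 to APL#2 was 1.08 (305 of 3168 genes within 0.1%). In 28 genes with 1 transcript a fragment on 1 kb was worth 0.0196 FPKM in APL#1. The step of 0.0181 FPKM for APL#2 was derived by dividing by that ratio. These steps imply scaling totals of about 51000000 and 55200000 fragments. Fragments per gene used the coding GENCODE vM21 transcript whose span is closest to the mm9 locus, so they scale with the length taken. Close copies were sought with blastn 2.17.0, and antisense overlap was found for Alas1 only (4930500F10Rik, 11.1% of its exonic bases). Scripts ran in Python 3.11.15 and were tested on simulated data.

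Members and lists were chosen with earlier results of these data known. Named genes are the 9 members, list genes with mean FPKM of at least 1 and 10 partner or marker genes fixed by name. Outside this rule, the marker genes Slc4a1, Gata1, Spic and Cd163 are named as examples. Emr1, Abcg2 and Cybb were picked after their values were seen. A further listed gene is not reported here. Older symbols were matched through RefSeq synonyms (GRCm38.p6), and 5 listed symbols were not matched.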

Additional observations from a re-analysis of the deposited data

How the results depend on the processing

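Without replicates no setting has a test. With a pseudocount of 0.1 or none, 1 measured member, Fech, was at least 2-fold lower in APL#2 (log2 -1.46 and -1.58), where none was with a pseudocount of 1. No setting gave a member at least 2-fold higher. Scaling to the upper quartile moved the all-gene median from -0.17 to -0.03, the iron handling median from 0.06 to 0.25 and Fth1 from 0.72 to 0.93, and Fech from -0.87 to -0.75, so that Fth1 then differed more than Fech. It turned the sign of the median of the measured members (-0.16 to 0.04) and of the iron-sulfur genes (-0.12 to 0.01), and moved that of the heme synthesis enzymes from -0.29 to -0.13. With a mean FPKM of at least 5 the median of the 2 members left (Alas1 and Fth1) was 0.28, that of 2 heme degradation and transport genes -0.59 and that of 2 heme protein genes -0.97, since fewer genes are counted, and no iron-sulfur gene was left. The heme protein median, -0.50, was -0.77 without a pseudocount and -0.10 with no filter on low values. Without Fth1 the median of the measured members was -0.29. Of 52 named genes, 12 moved beyond their counting interval under upper quartile scaling, 4 with a pseudocount of 0.1 and none when scaled to the sum. Without a pseudocount 7 of 49 did. No paired analysis was possible because each leukaemia has 1 library, and for the same reason no library could be left out. About 22 fragments behind Uros and 29 to 51 behind Alad limit what their ratios show.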

Other observations

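Among pathway list genes under the mean FPKM of 1, Abcg2 and Cybb were picked after their values were seen. Abcg2, an exporter of porphyrins and drugs, measured 0.879 FPKM in APL#1 against 0.113 in APL#2, about 257 and 36 fragments, a 7.77-fold excess in APL#1. In the authors' deposited table, Abcg2 had p = 0.0113 and q = 1.00. Cybb, the heme-binding large chain of the phagocyte oxidase, stood at 0.0115 and 0.224 FPKM, about 3 and 59 fragments, a ratio of 19.4 with a counting interval of 5.85 to 64.4, while its partner Cyba was nearly level.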
